A study of Drosophila melanogaster with 3 samples.

Results

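A group of 24 protein-coding genes, known to the deposited table only by CG number, was at least 4 times higher in both *mxc* mutants of *Drosophila melanogaster* than in wild type. A CG number is the identifier that the annotation of the fly genome gives to a predicted gene before the gene has a name. The RNA was that of entire 3rd instar larvae, all male, in 3 genotypes: *mxcmbn1*, which develops a lymph gland tumour, the hypomorphic allele *mxcG43*, in which no tumour was seen, and the wild-type strain Canton S. *mxc* lies on the X chromosome, so a mutant male carries no second copy, and the *mxcmbn1* stock had lost a duplication that carries *mxc+* and was marked with *w1*. The 3 strains therefore differ in more than the *mxc* allele, and the allele and the strain background cannot be told apart. There was 1 library per genotype, and how many larvae went into each is not given in the sources used here.

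The *multi sex combs* gene (*mxc*) encodes a nuclear protein that is needed for normal expression of the replication-dependent histone genes. The lymph gland is the larval organ in which blood cells (haemocytes) form. In *mxcmbn1* larvae its cells overgrow, and *mxcG43* gives a comparison with a mutant that lacks this overgrowth.

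The members were chosen on the measured levels themselves. A level is given in FPKM, the fragments of a gene scaled by the length of its transcript and by the mapped fragments of its library. An entry was taken if it was named by CG and digits, reached 3 FPKM in both mutants, was at least 4 times wild type in both, and differed less than 4 times between the mutants, with 0.1 FPKM added to every level for these ratios. Of 7376 CG entries, 24 met this, which is 0.325%. In the whole table of 15185 entries, 56 met the same thresholds (0.369%), and 32 of these were not CG numbers (0.41% of such entries). At least 4 times wild type were 832 entries in *mxcmbn1* (5.48%), 493 in *mxcG43* (3.25%) and 184 in both (1.21%). All the values below on the 3 libraries are descriptions of genes picked for these values, and both mutants were set against the same wild-type library. With 1 library per genotype no test between genotypes could be run and no difference has a replicate check.

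The name uncharacterised did not hold for all 24. RefSeq carried 3 of them under another symbol: *CG3292* as *Alp7*, an alkaline phosphatase, *CG10361* as *Gcat*, glycine C-acetyltransferase, and *CG11459* as *CtsL3*, a cysteine protease of the cathepsin L type. The other 21 were still CG numbers, a share of 12.5% renamed, against 22.5% of the 7133 CG entries matched to RefSeq. In the gene-name column of the deposited table, 21 members carried only the words for a product of a named transcript and 3 (*CG43235*, *CG43221* and *CG43208*) a dash. All 24 were annotated as protein coding, and no function is stated here for those without a name.

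The level of the members had a median of 22.3 FPKM in *mxcmbn1* (3.04 to 209), 27.6 FPKM in *mxcG43* (3.19 to 145) and 1.55 FPKM in wild type (0 to 9.64). Over all CG entries the medians were 3.65, 6.84 and 7.30 FPKM in the same order of libraries. The members were thus high among CG genes in the mutants and low in wild type, as the rule required. On the scale of log2 (FPKM + 0.1), the median difference was 4.03 for *mxcmbn1* minus wild type and 3.54 for *mxcG43* minus wild type, against 0 for both over all entries. It was 0.36 for *mxcmbn1* minus *mxcG43* (−1.96 to 1.98).

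**Figure D1:**
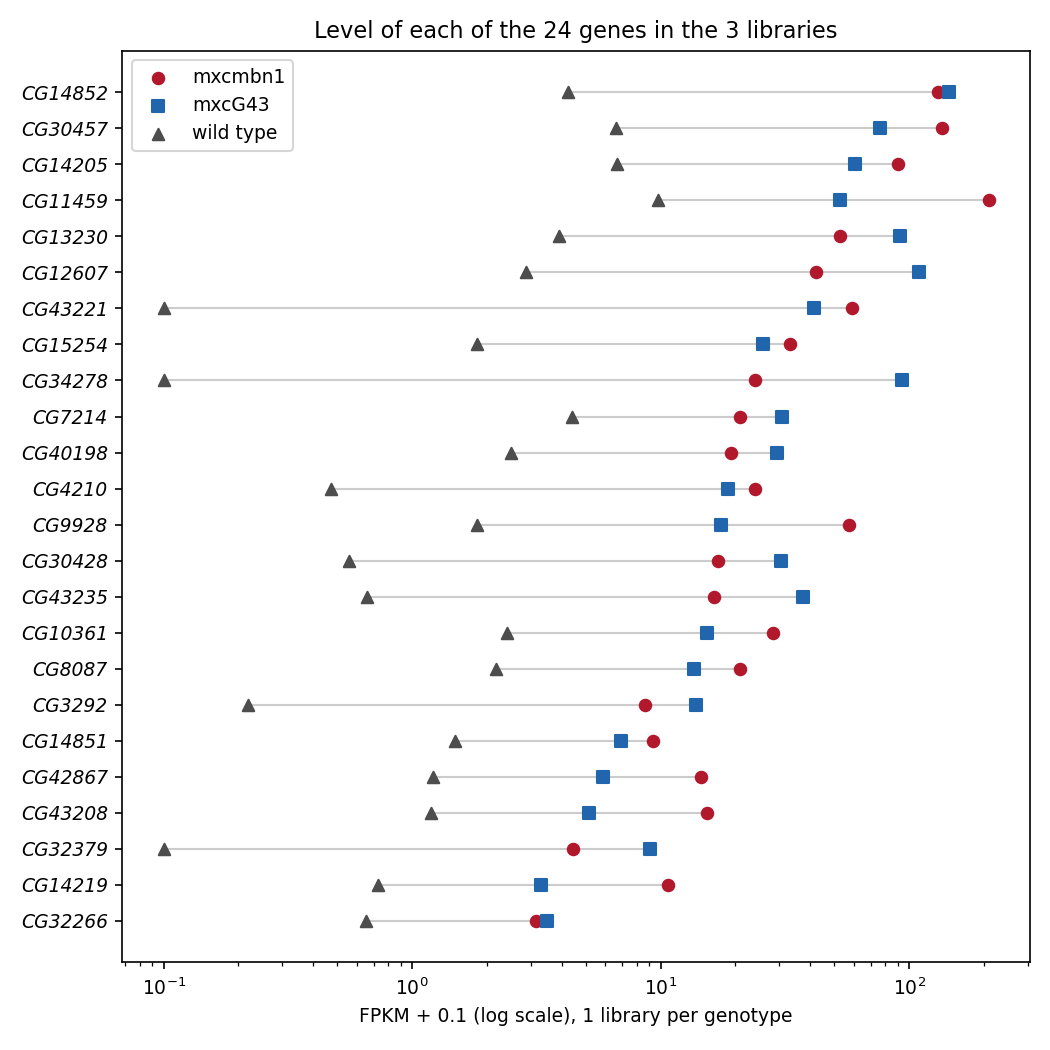
FPKM plus 0.1 on a log axis for each of the 24 genes, with 1 point per library (circle, *mxcmbn1*; square, *mxcG43*; triangle, wild type), ordered by the lower of the mutant levels. Wild type is the lowest point in every row, and 3 genes lie at 0.1 in wild type because they were listed at 0.

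*mxc* itself was at 3.56 FPKM in *mxcmbn1*, 1.94 FPKM in *mxcG43* and 1.96 FPKM in wild type, so its level does not check the genotype labels. Depth was 1.36 in *mxcmbn1* and 0.970 in *mxcG43* relative to wild type. It was taken as the scale at which most ratios of low FPKM values between 2 libraries were ratios of whole numbers. Whole larvae hold many tissues, and in such RNA more cells of a type and more RNA per cell cannot be told apart. The authors describe the wild-type and *mxcmbn1* larvae as of the same stage. They also report that some *mxcmbn1* animals were still larvae days after normal controls had pupated. The age of the sequenced larvae is not given. The larvae differed in tissue markers. Haemocyte markers (10 of 10 measured, none at 0) summed to 1331 FPKM in *mxcmbn1*, 221 in *mxcG43* and 211 in wild type, and 10 immune peptide genes to 5305, 478 and 162 FPKM. Testis genes (10) summed to 12.7, 1097 and 1456 FPKM, glue genes of the salivary gland (6) to 2108, 24332 and 29677 FPKM, and fat body genes (6) to 8807, 20180 and 26980 FPKM. Between *mxcG43* and wild type these 5 sums differed less than 4-fold. Single genes could differ more, and 2 of the 10 immune peptide genes were at least 4 times wild type in *mxcG43*, against 7 in *mxcmbn1*. Of the stress genes, 7 of 8 were measured and summed to 30269, 4311 and 1725 FPKM, with 4 of the 7 higher in *mxcmbn1* and 6 in *mxcG43* than in wild type. The 8 midgut genes summed to 14818, 18239 and 14164 FPKM. The part of these tissue and stress differences, or of a difference in larval age, in the levels of the 24 genes was not tested.

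Among the 3 genes that now have a name, *CG3292* (*Alp7*) had the widest gap. Alkaline phosphatases remove phosphate groups from other molecules at alkaline pH. Its level was 8.57 FPKM in *mxcmbn1*, 13.8 FPKM in *mxcG43* and 0.119 FPKM in wild type, which stood on 196, 225 and 2 reads. The ratio to wild type was 72.3 in *mxcmbn1* (95% interval 19.7 to 601) and 116 in *mxcG43* (31.7 to 964). These are exact Clopper-Pearson intervals of the split of reads between 2 libraries. They cover counting error only, since reads amplified without molecular identifiers are not independent molecules. The intervals are wide because wild type held 2 reads. The gene lies at 2R:18091199-18093081 in BDGP5, the build of the deposited table, has 4 exons in the BDGP6 annotation and encodes 543 residues.

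*CG11459* (*CtsL3*), a protease, reached 209 FPKM in *mxcmbn1*, 52.8 FPKM in *mxcG43* and 9.64 FPKM in wild type, on 2964, 537 and 101 reads. It had the highest *mxcmbn1* level and the highest wild-type level of the 24. Its ratios were 21.6 (17.8 to 26.7) in *mxcmbn1* and 5.48 (4.43 to 6.85) in *mxcG43*. On a log scale these intervals were the narrowest among the 16 genes that have them. *CG10361* (*Gcat*), a mitochondrial enzyme of threonine breakdown, was at 28.3 FPKM in *mxcmbn1*, 15.2 FPKM in *mxcG43* and 2.31 FPKM in wild type, on 533, 205 and 32 reads. Its ratios were 12.3 (8.60 to 18.1) and 6.61 (4.54 to 9.91). Both of these genes were higher in *mxcmbn1*, and *CG3292* was higher in *mxcG43*. The BDGP5 loci are 3R:1851832-1852962 for *CG11459*, which encodes 336 residues, and 3L:11792048-11793961 for *CG10361*, which encodes 417.

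Wild type was listed at 0 for 3 genes, for which no ratio is given. *CG43221* was at 58.9 FPKM in *mxcmbn1*, 41.1 FPKM in *mxcG43* and 0 in wild type. It is the smallest gene of the group, with 34 residues and a locus of 215 bases (2L:17485791-17486005), about the length of 1 fragment, so that no number of reads could be found for it and its FPKM is uncertain. Its exons overlap those of *CG43645* on the same strand in BDGP6, while the deposited BDGP5 loci of these genes lie 147 bases apart. *CG43645* was at 23.1 FPKM in *mxcmbn1* and listed at 0 in *mxcG43* and wild type. *CG34278* was at 23.9 FPKM in *mxcmbn1*, 93.5 FPKM in *mxcG43* and 0 in wild type, which the length of its transcript puts at about 53.5, 149.5 and 0 reads. It has 1 exon and 91 residues and lies inside *cher*, which is on the opposite strand and has no exon there. The third, *CG32379* (3L:7389455-7391309, 344 residues), was at 4.35 FPKM in *mxcmbn1*, 8.99 FPKM in *mxcG43* and 0 in wild type, on 69, 102 and 0 reads. For it, 1 wild-type read would be 0.085 FPKM. *CG34278* and *CG32379* were thus higher in *mxcG43*, and *CG43221* in *mxcmbn1*.

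Of the genes above 0 in wild type, *CG4210*, *CG14852*, *CG30428*, *CG43235*, *CG12607* and *CG15254* had, with *CG3292*, the highest values of the lower of their ratios. *CG14852* (3R:10391668-10392192, 1 exon, 174 residues) was at 131 FPKM in *mxcmbn1*, 145 FPKM in *mxcG43* and 4.13 FPKM in wild type, on 642, 510 and 15 reads. Its ratios of 31.6 (19.0 to 56.7) in *mxcmbn1* and 35.1 (21.1 to 63.1) in *mxcG43* rest on more wild-type reads than the ratios of *CG3292*. The mutants lay close together, with a ratio of 0.900 for *mxcmbn1* over *mxcG43* (0.800 to 1.01). In BDGP6 its exons overlap those of *CG31313* on the other strand, while the deposited BDGP5 loci of these genes lie 109 bases apart. *CG31313* was at 191 FPKM in *mxcmbn1*, 158 FPKM in *mxcG43* and 222 FPKM in wild type. The libraries kept the strand, but the counting is not stated to have used it, so reads of overlapping genes on opposite strands may not have been kept apart.

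*CG30428* was at 16.9 FPKM in *mxcmbn1*, 30.4 FPKM in *mxcG43* and 0.459 FPKM in wild type, on 200, 257 and 4 reads, with ratios of 36.9 (14.2 to 137) and 66.3 (25.6 to 245). *CG43235* was at 16.2 FPKM in *mxcmbn1*, 37.3 FPKM in *mxcG43* and 0.560 FPKM in wild type, on 118, 194 and 3 reads, with ratios of 29.0 (9.69 to 143) and 66.7 (22.5 to 326). Both were higher in *mxcG43*, and both rest on few wild-type reads. *CG30428* (263 residues) lies inside *CG9380* on the other strand and overlaps copies of transposable elements, and an INE-1 copy lies over part of its exons, so its reads may not be kept apart from those of the element. *CG43235* (103 residues) shares exons with the thioester protein gene *TepII* on the other strand. *CG4210* was at 23.8 FPKM in *mxcmbn1*, 18.5 FPKM in *mxcG43* and 0.370 FPKM in wild type, ratios of 64.3 and 50.0, on about 2.0 wild-type reads by its length. Its exons overlap those of *SIDL* on the other strand.

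*CG12607* (3L:4446573-4448072, 155 residues) was at 42.1 FPKM in *mxcmbn1*, 110 FPKM in *mxcG43* and 2.78 FPKM in wild type, or 15.1 and 39.5 times wild type, with about 25.0 wild-type reads by length. *CG15254* (2L:15613948-15614824, 254 residues) was at 33.0 FPKM in *mxcmbn1*, 25.7 FPKM in *mxcG43* and 1.72 FPKM in wild type, on 312, 174 and 12 reads. Its ratios were 19.2 (10.8 to 37.5) and 15.0 (8.35 to 29.5). Neither locus was shared with another entry, and each gene reached more than 10 times wild type in both mutants.

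By level, the 10 genes with the highest lower mutant level were *CG14852*, *CG30457*, *CG14205*, *CG11459*, *CG13230*, *CG12607*, *CG43221*, *CG15254*, *CG34278* and *CG7214*. *CG30457* (2R:13047659-13048330, 189 residues) was at 136 FPKM in *mxcmbn1*, 76.4 FPKM in *mxcG43* and 6.54 FPKM in wild type, on 846, 340 and 30 reads. Its ratios were 20.8 (14.5 to 31.0) and 11.7 (8.04 to 17.6). Its right-hand neighbour *CG10953* was at 59.1, 133 and 18.8 FPKM in *mxcmbn1*, *mxcG43* and wild type, so that only the *mxcG43* level passed 4 times wild type. *CG13230* (72 residues, inside *CG13229* on the other strand) was at 52.8 FPKM in *mxcmbn1*, 91.9 FPKM in *mxcG43* and 3.81 FPKM in wild type, on 94, 117 and 5 reads. Its ratios were 13.9 (5.74 to 43.7) and 24.1 (10.1 to 75.7).

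*CG7214* (2L:7743677-7744841, 142 residues) was the gene with the lowest *mxcmbn1* ratio, at 20.7 FPKM in *mxcmbn1*, 30.7 FPKM in *mxcG43* and 4.30 FPKM in wild type. With 268, 284 and 41 reads, its ratios were 4.82 (3.46 to 6.87) and 7.14 (5.14 to 10.2). The neighbouring *Acp1*, which encodes an adult cuticle protein, was at 2.53 FPKM in *mxcmbn1*, 10.8 FPKM in *mxcG43* and 0.270 FPKM in wild type. *Acp1* missed the minimum of 3 FPKM in *mxcmbn1* and also the limit on the ratio between the mutants. *CG40198* (184 residues) was the 1 member in heterochromatin, on 3RHet:2504376-2506001. It was at 19.1 FPKM in *mxcmbn1*, 29.4 FPKM in *mxcG43* and 2.40 FPKM in wild type, on 399, 439 and 37 reads, with ratios of 7.95 (5.67 to 11.5) and 12.2 (8.74 to 17.6).

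**Figure D2:**
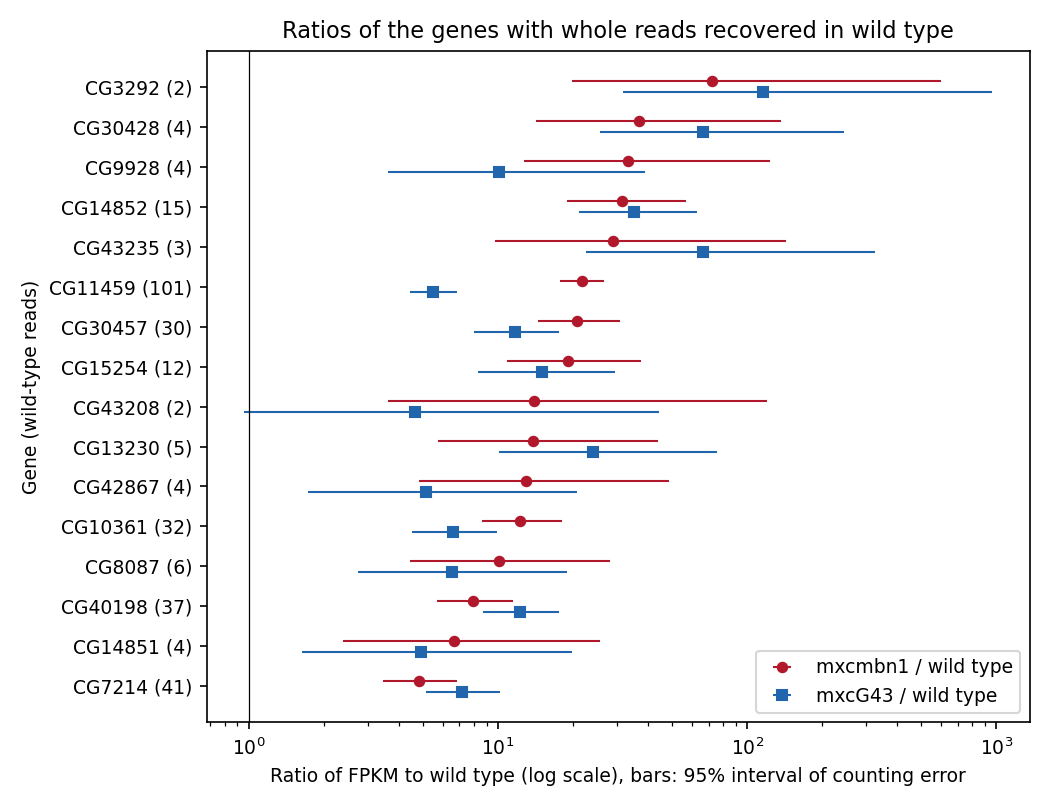
Ratio of FPKM to wild type on a log axis for the 16 genes with whole reads recovered and above 0 in wild type, with the 95% interval of counting error (circle, *mxcmbn1*; square, *mxcG43*) and the wild-type reads in brackets. Intervals are narrow for *CG11459*, with 101 wild-type reads, and wide for *CG3292* and *CG43208*, with 2 reads each.

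Whole reads were recovered for 17 of the 24 genes. In the 16 of these above 0 in wild type, the wild-type reads had a median of 5.5 (2 to 101). *CG43208* was the least certain. It was at 15.3 FPKM in *mxcmbn1*, 5.06 FPKM in *mxcG43* and 1.09 FPKM in wild type, on 38, 9 and 2 reads. Its ratio was 14.0 (3.62 to 120) in *mxcmbn1* and 4.64 (0.961 to 44.1) in *mxcG43*, an interval that includes 1. In all, 8 genes were at 0 or on 3 reads or fewer in wild type (*CG43221*, *CG34278*, *CG32379*, *CG3292*, *CG4210*, *CG43235*, *CG32266* and *CG43208*) and 16 were above that.

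The mutants were not alike in level. Of the 24 genes, 13 were higher in *mxcmbn1* and 11 in *mxcG43*, or 54.2% in *mxcmbn1*, against 58.7% of the 7836 entries with at least 3 FPKM in both mutants. For 15 genes the mutants were within 2-fold. Where reads were recovered, the counting interval of *mxcmbn1* over *mxcG43* lay above 1 for 8 genes, under 1 for 7 and on both sides of 1 for 2 (*CG14852* and *CG14851*). Counting error alone is thus smaller than most of these gaps, while the spread between larvae of 1 genotype is unknown.

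Among the 3 named enzymes this ratio was 3.95 (3.60 to 4.34) for *CG11459*, 1.86 (1.58 to 2.20) for *CG10361* and 0.623 (0.512 to 0.758) for *CG3292*. The genes furthest towards *mxcmbn1* were *CG11459*, *CG14219* and *CG9928*. *CG9928* (2L:13142494-13142902, 1 exon, 106 residues) was at 57.3 FPKM in *mxcmbn1*, 17.4 FPKM in *mxcG43* and 1.73 FPKM in wild type, on 180, 39 and 4 reads, a ratio between the mutants of 3.30 (2.32 to 4.79). It was 33.2 times (12.7 to 123) wild type in *mxcmbn1* and 10.1 times (3.63 to 38.7) in *mxcG43*. *CG14219*, on X, had a ratio between the mutants of 3.33. Towards *mxcG43* were *CG34278* with a ratio of 0.256, *CG12607* with 0.383 and *CG43235* with 0.435 (0.343 to 0.550). *CG42867* (2R:18553052-18553634, 67 residues) was at 14.4 FPKM in *mxcmbn1*, 5.76 FPKM in *mxcG43* and 1.12 FPKM in wild type, on 70, 20 and 4 reads. It lies between *CG4250*, at 450, 24.3 and 27.4 FPKM in *mxcmbn1*, *mxcG43* and wild type, and *CG42868*, at 298, 51.8 and 60.8 FPKM. Both neighbours were high in *mxcmbn1* and about level between *mxcG43* and wild type, whereas *CG42867* was 12.9 times (4.82 to 48.7) and 5.16 times (1.73 to 20.7) wild type.

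In position, 5 members (20.8%) lay within 20 kb of another member, against 72 of all CG entries (0.976%), the 5 members among them. Entries on a shared locus were not counted as near in either group, though they stay in both totals. They are 29.2% of the members and 37.8% of CG entries. The 5 near members form a run of 3 genes on 3R and a pair on X. The run, with *CG14850* in front of it, spans 5489 bases. *CG14850* was at 70.5 FPKM in *mxcmbn1*, 9.23 FPKM in *mxcG43* and 0.790 FPKM in wild type, 89.3 and 11.7 times wild type, and is outside the group only because the mutants differ 7.64-fold. Next to it, *CG14851* (3R:10388084-10388542) was at 9.21, 6.80 and 1.39 FPKM in *mxcmbn1*, *mxcG43* and wild type, on 36, 19 and 4 reads. *CG8087* (3R:10390044-10390504) was at 20.8, 13.5 and 2.07 FPKM, on 82, 38 and 6 reads, and *CG14852* closes the run. All 4 encode short proteins, of 158, 152, 142 and 174 residues, and the 3 members have 1 exon each.

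The ratios to wild type along the run differed in size. *CG14851* stood at 6.64 (2.38 to 25.7) in *mxcmbn1* and 4.90 (1.63 to 19.8) in *mxcG43*, and *CG8087* at 10.1 (4.44 to 28.3) and 6.53 (2.74 to 18.9). The difference did not reach past the run. On the left *CG14854* was at 0.425 FPKM in *mxcmbn1*, 0 in *mxcG43* and 0.384 FPKM in wild type. On the right *CG31313* was as given above, *CG8066* was at 56.6, 18.2 and 31.6 FPKM, and *Cys*, which encodes a cystatin-like protease inhibitor, at 378, 234 and 269 FPKM in *mxcmbn1*, *mxcG43* and wild type.

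On X, *CG14219* (X:19481415-19484104) and *CG14205* (X:19486645-19489581) are 2540 bases apart, with 9 exons each and 724 and 713 residues. They are the longest proteins of the group. *CG14205* was at 89.8 FPKM in *mxcmbn1*, 60.3 FPKM in *mxcG43* and 6.56 FPKM in wild type, or 13.7 and 9.19 times wild type, with about 158 wild-type reads by its length. *CG14219* was lower, at 10.6 FPKM in *mxcmbn1*, 3.19 FPKM in *mxcG43* and 0.628 FPKM in wild type, or 16.9 and 5.08 times. On the left, *CG14204*, of 743 residues, was at 0.378, 0.0440 and 0 FPKM, and *CG14218* at 0.370, 0 and 0 FPKM. On the right *RpS10b*, a ribosomal protein gene, was at 1096, 749 and 843 FPKM in *mxcmbn1*, *mxcG43* and wild type. The pair was thus flanked by genes that were nearly silent or about level in the 3 libraries.

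**Figure D3:**
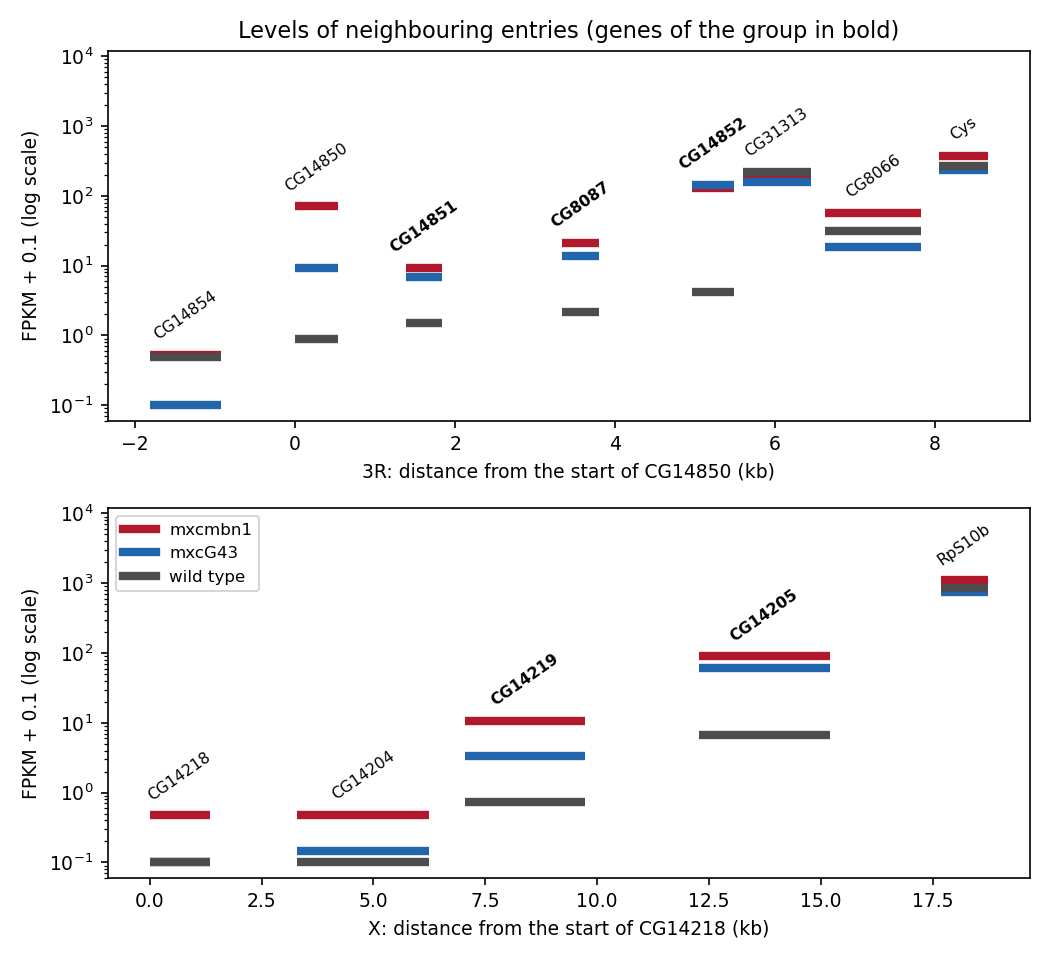
FPKM plus 0.1 (log axis) of neighbouring entries against distance in kilobases, for the run on 3R (top) and the pair on X (bottom), with a bar per library (red, *mxcmbn1*; blue, *mxcG43*; grey, wild type) as long as the entry's locus. Wild type lies under both mutants for *CG14850* to *CG14852* and for *CG14219* and *CG14205*, but not for *CG31313* or *RpS10b*.

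Most of the nearest neighbours did not share the pattern. Of 44 neighbouring entries that were not members, 8 (18.2%) were at least 4 times wild type in *mxcmbn1* and 3 (6.82%) in *mxcG43*, against 5.48% and 3.25% of all entries, and 0 passed all the thresholds. The shares were thus above those of all entries in both mutants, which was not tested. The 3 in *mxcG43* were *CG14850*, *Acp1* and *CG10953*. The median log2 difference of the 44 was 0.023 in *mxcmbn1* and 0 in *mxcG43*. By chromosome arm, 5 members (20.8%) lay on 2L, 5 (20.8%) on 2R, 4 (16.7%) on 3L, 7 (29.2%) on 3R and 2 (8.33%) on X, against 18.9%, 19.1%, 20.2%, 24.2% and 16.3% of CG entries. The 1 on 3RHet is among 12 CG entries there.

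The members encode short proteins, a property that the rule did not use directly. The longest annotated protein had a median of 164.5 residues (34 to 724), against 364 residues for the 3518 CG entries with at least 3 FPKM in both mutants and 342 for the 7133 CG entries with a protein. Under 200 residues were 16 members (66.7%), against 21.4% of those 3518 entries, and under 100 residues were 6 (25%), against 5.88%. Of the members, 15 (62.5%) had 1 or 2 exons, against 35.8%. CG entries with at least 3 FPKM and 4 times wild type in a single mutant, and under 4 times wild type in the other, had medians between these, 283 residues for the 213 of *mxcmbn1* and 259 residues for the 58 of *mxcG43*. FPKM of short transcripts depends strongly on the assumed fragment length. At a given FPKM a short transcript also stands on fewer reads, so its ratios vary more by counting. The part of either in the difference in length was not tested.

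**Figure D4:**
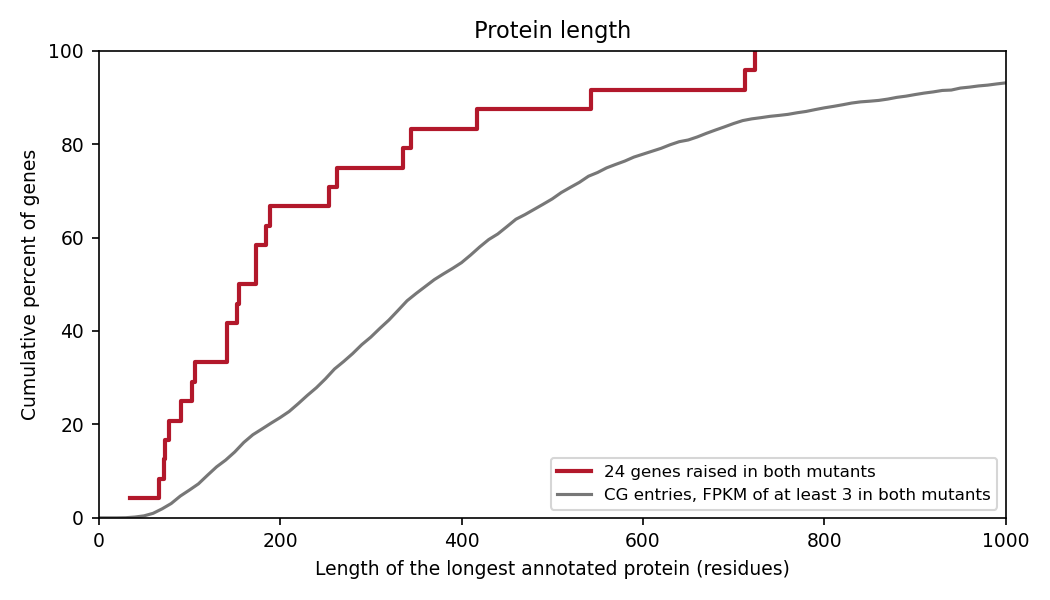
Cumulative percent of genes against the length of the longest annotated protein in residues, for the 24 genes (red steps) and for CG entries with at least 3 FPKM in both mutants (grey line). The red line lies above the grey line from under 100 residues on, with 66.7% of the 24 genes against 21.4% of the CG entries under 200 residues.

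Shared loci limit some of the values. In the table, 7 members (29.2%) lie in a locus joined with other entries, against 37.8% of CG entries: *CG43235*, *CG13230*, *CG30428*, *CG32266*, *CG43208*, *CG4210* and *CG34278*. In BDGP6, 10 members overlap another gene, 5 of them by their exons and 5 (*CG13230*, *CG30428*, *CG32266*, *CG43208* and *CG34278*) inside the other gene with no exon in common. Of these last 5, *CG43208* lies on the same strand as its host gene *CG32473*, so strand could not keep their reads apart. The others lie on the strand opposite their host. For *CG42867* the exons overlap those of a long non-coding RNA gene on the other strand. The deposited coordinates of these 7 belong to the shared locus and are not printed.

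At the thresholds, the members just inside were *CG32266*, *CG11459* and *CG34278*. *CG32266* (77 residues) was at 3.04 FPKM in *mxcmbn1*, 3.40 FPKM in *mxcG43* and 0.549 FPKM in wild type, on about 15, 12 and 2 reads by length, ratios of 5.53 and 6.19. The others were inside on the ratio between the mutants. Just outside were *CG42651* at 7.04, 4.92 and 1.19 FPKM in *mxcmbn1*, *mxcG43* and wild type, *CG15615* at 2.87, 2.97 and 0.432 FPKM, and *CG12896* at 9.71, 11.3 and 2.51 FPKM. A further 7 CG entries missed only the limit on the ratio between mutants. Of these, *CG13560* was far higher in *mxcG43*, at 75.6 FPKM in *mxcmbn1*, 1197 FPKM in *mxcG43* and 8.01 FPKM in wild type, and *CG11350* was at 93.3, 407 and 12.9 FPKM. The other 5 (*CG13135*, *CG33459*, *CG43202*, *CG14850* and *CG33093*) were higher in *mxcmbn1*, as *CG43202* at 48.7 FPKM in *mxcmbn1*, 3.22 FPKM in *mxcG43* and 0.520 FPKM in wild type.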

How the data were processed

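RNA of whole male larvae of the 3rd instar was sequenced by the authors as single-end reads of 51 bases, with 1 strand-keeping library per genotype. Reads were checked with FastQC 0.11.5 and aligned to BDGP5 with TopHat 2.0.6, and the authors deposited FPKM values from Cufflinks at default parameters. The gene annotation and the read filter are not given in the sources used here. No count, confidence bound or column of another series was used (0 such columns). Relative depth and whole reads were recovered from low FPKM values at a relative tolerance of 1.5e-05. Library size was then taken from 947 single-transcript entries for which whole reads had already been found. Of these, 933 (98.5%) gave the median library size or that size divided by a whole number. Entries without whole reads were left out beforehand, so this is not a success rate of the recovery. For members, whole reads were sought within 10% of the number expected from transcript length, with a fragment length of 200 ± 80 bases. The bounds were rounded outwards to whole reads in the library with the fewest, so at few reads the window is wider than 10%. For *CG30428*, 4 wild-type reads were found against 4.6 expected. The expected number is given as the reads by length where no whole solution was found. Deposited locus starts count from 0 and are printed from 1. BDGP6 and RefSeq gave only names, gene classes, exons, overlaps and protein lengths.

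Ratios printed are plain ratios of FPKM, and log2 values carry a pseudocount of 0.1. Members, marker lists and rules were chosen with earlier results of these data known. Named genes were the 10 highest by lower ratio and by lower mutant level, those at 0 in wild type, the 3 at each end of the mutant ratio, those near another member or on a shared locus, those with a name, those at the thresholds, and *mxc*. Of the members outside this rule, *CG42867* and *CG40198* were named after their values were seen, as were neighbouring entries and those past only the limits to wild type. On simulated data, 200 of 200 entries raised far past the thresholds were found and none of the others, which checks only that the rule was coded rightly. For 2000 of 2000 simulated entries the reads were right up to a common factor, with the depths known. The search used for the members, round a length estimate, was not simulated. Alternatives were other pseudocounts, minimum levels, ratios and scalings, and leaving out shared loci. Scripts ran under Python 3.11.15 with scipy 1.17.1, pandas 2.3.3 and numpy 2.4.6, and plots were drawn with matplotlib 3.10.9.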

Additional observations from a re-analysis of the deposited data

How the results depend on the processing

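The number of genes depended on the thresholds. The 24 became 64 with no minimum FPKM, 83 at a ratio of at least 2 and 12 at a ratio of at least 10. The 56 entries of the whole table became 89 at a minimum of 1 FPKM, 145 with no minimum, 153 at a ratio of at least 2, 33 at a ratio of at least 10 and 35 with overlapping and joined entries left out. Under the other settings the group held 17 to 36 genes. A pseudocount of 1 removed *CG42867*, *CG32266*, *CG43208*, *CG14851* and *CG14219*. A pseudocount of 1 moved the ratio to wild type by over 1.5 times for 11 genes in *mxcmbn1* and 10 in *mxcG43*, and one of 0.01 for 4 in each, but no ratio changed direction. Of the 24, 13 were higher in *mxcmbn1* and 11 in *mxcG43* under both other pseudocounts and both scalings, and 11 and 6 of the 17 left without shared loci. Rescaling moved all levels by less than 0.1 on the log2 scale. No paired analysis was possible because there is 1 library per genotype, and for the same reason no library could be left out. Depth limits the ratios most for the 8 genes at 0 or on 3 reads or fewer in wild type. It limits others too. Of the 16 genes with counting intervals to wild type, 6 had a lower bound under 4 in at least 1 mutant. The other 10 had both lower bounds at 4 or above.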

Other observations

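Outside the CG numbers, 32 entries met the same thresholds. By a grouping made after their names were seen, 11 were snoRNA or snRNA genes, 7 encode immune recognition proteins, antimicrobial peptides or lysozymes, 6 encode cuticle proteins, 2 encode cytochromes P450 and 2 were *Stellate* or *Suppressor of Stellate* copies. The share of each class over all entries was not computed. The peptidoglycan-degrading amidase genes *PGRP-SC1a*, *PGRP-SC1b* and *PGRP-SC2* were at 302, 219 and 415 FPKM in *mxcmbn1*, 347, 200 and 387 FPKM in *mxcG43*, and 15.7, 13.0 and 81.4 FPKM in wild type. These genes were close between the mutants. The antifungal peptide gene *Drs* was at 889 FPKM in *mxcmbn1*, 387 FPKM in *mxcG43* and 39.6 FPKM in wild type. The peptide gene *Def* was at 6.36, 5.15 and 0.454 FPKM in the same order. The authors also measured *Drs* and *Def* by quantitative PCR with biological replicates. In *mxcG43* they found no rise like that in *mxcmbn1*. Their control in that assay was the *w* stock, not Canton S. The reason for this disagreement was not tested. The larval cuticle gene *Lcp65Ag3* was at 103, 101 and 4.79 FPKM, and the P450 gene *Cyp4e3* at 121, 122 and 1.71 FPKM in *mxcmbn1*, *mxcG43* and wild type.

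Counts with each library in turn set against the other 2 were added after the data were seen. The same thresholds were applied with another library as the low one. Of 7376 CG entries, 1197 were low in *mxcmbn1* alone and 7 in *mxcG43* alone, against the 24 low in wild type alone. Over all 15185 entries these counts were 1564, 47 and 56. An entry was called high in a single library at 3 FPKM or more and at least 4 times each of the other libraries. Those had to lie within 4 times of each other. Of the CG entries, 167 were high in *mxcmbn1*, 28 in *mxcG43* and 23 in wild type. Over all 15185 entries the counts were 347, 91 and 69.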
